A study of Sus scrofa with 16 samples.

Results

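The windows described here lay under a methylation peak in at least 3 of 4 Tibetan lowland pigs, as the peak lists are read here, and under none in the other groups. The genome was divided into windows of 500 bp, and a window was called private to Tibetan lowland pigs (TL-private) when its base 250 lay under 3 or 4 TL peaks and under no peak of the other groups. On chromosomes 1 to 18, 454 windows met this rule, of 620135 windows with a peak in any group. Adjoining windows were joined into 354 regions, which were covered by 1075 of the 259066 TL peaks. Of these peaks, 9 covered 2 regions each, and 6 regions lay within 1 kb of another, so some neighbouring regions are parts of the same TL peaks. The members were chosen by the peak calls themselves, so their numbers of peaks are a description and were not tested.

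DNA was taken from the hearts of 16 male pigs of 6 months, all castrated, in 4 groups of 4. Tibetan highland (TH) and Yorkshire highland (YH) pigs were raised on the Tibetan plateau at Linzhi, and the lowland pigs of both breeds, Tibetan (TL) and Yorkshire (YL), in Beijing. TL and YH pigs were of the breed that does not come from the place of raising: their forebears had come there from elsewhere, and the sampled pigs themselves were born where they were raised. TL pigs therefore shared the breed with TH and the place with YL. Against TH, the place of raising cannot be told apart from the move, and against YL, the breed cannot. No cells were separated, so a peak can come from any cell type of the heart.

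In mammals, DNA methylation is found mainly at cytosines followed by guanine, and it is copied to the new strand when cells divide. Methylated promoters are usually silent, whereas methylation of introns and of the sequence between genes is common and is not tied to expression in 1 direction. In methylated DNA immunoprecipitation sequencing (MeDIP-seq) an antibody pulls down fragments that carry 5-methylcytosine. A peak is a stretch where such fragments pile up over the background, and its height depends on methylation, on how many CpG sites the stretch holds and on sequencing depth.

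Each group had 1 list of peaks, from 259066 peaks in TL, the shortest list, to 280678 in TH, 287224 in YH and 332078 in YL. Peaks of a list overlapped one another, and no base lay under more than 4 of them, as many as a group has pigs. The lists were read as the joined peaks of 4 animals whose names the lists do not carry, so 3 peaks over a base stand for 3 animals only under this reading. How much single pigs of a group differed is not known, since each group has 1 list. The 95% Wilson intervals given below cover counting error only, and adjoining windows are not independent. A peak comes with its tags, the reads counted in it, and its fold enrichment, a ratio to the background that the peak caller gave. A base without a peak is a base where no peak was called, not a base without methylation.

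TL-private windows were a small share of the well-supported TL windows. Of 69935 windows with 3 or 4 TL peaks, 454 or 0.649% (95% interval 0.592 to 0.711) had no peak of another group. Counted the same way, 912 windows were private to TH (1.19% of 76919), 631 to YH (0.658% of 95948) and 1604 to YL (1.4% of 114708). The TL-private windows were therefore the fewest in number, and their share lay within the interval of the YH share, 0.608 to 0.711%.

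The place of TL in this order moved with the length of the lists. When every list was reduced to the 259066 peaks with the most tags, TL had 730 private windows, or 1.04% (0.971 to 1.12) of the same 69935. TH then had 903 (1.23%), YH 627 (0.684%, 0.633 to 0.740) and YL 1190 (1.18%). With equal lists the TL share lay above the YH share. TL, the shortest list, lost no peaks, while the other lists lost those with the fewest tags. The TL number could thus only rise, and its place above YH says little of TL. As deposited, the shares of the 2 moved groups lay next to each other below those of TH and YL.

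**Figure D1:**
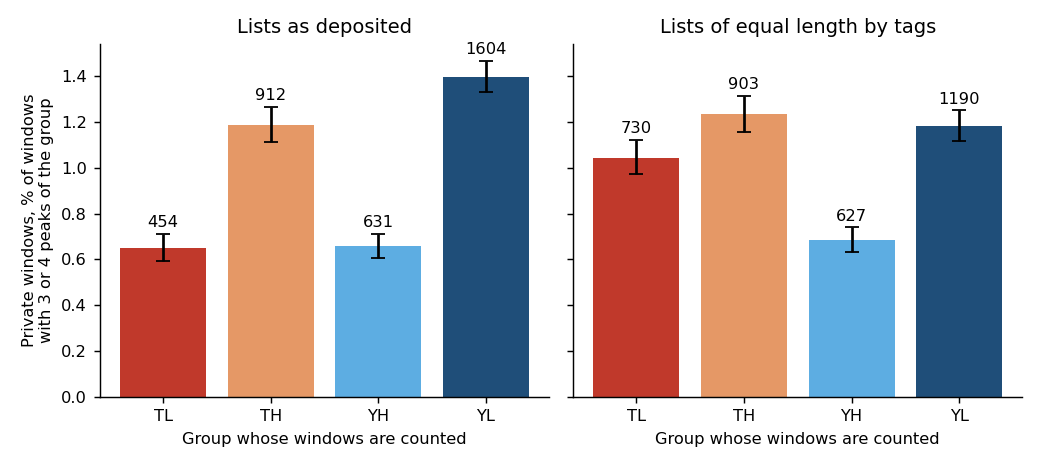
Private windows of each group as a percentage of that group's windows with 3 or 4 peaks, for the lists as deposited (left) and for lists reduced to the same number of peaks (right); bars start at 0, error bars are 95% Wilson intervals for counting error, and the number over each bar counts private windows. TL, whose list is not cut and whose number can only rise, goes from 454 to 730 windows with equal lists, and YH stays at 631 and 627.

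Set against the other groups 1 at a time, far more TL windows lacked a partner. Of the 69935 windows, 4016 (5.74%) had no TH peak, 3933 (5.62%) no YH peak and 3256 (4.66%) no YL peak. Lacking all 3 groups was thus a narrow subset of each pairwise difference. At the median, a window with 3 or 4 TL peaks lay under 9 of the 12 possible peaks of the other groups, and 9446 windows lay under all 12.

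Support by 4 TL peaks was rare among TL-private windows. Of the 454 windows, 432 had 3 TL peaks and 22 had 4, a share with 4 of 4.85% (3.22 to 7.23), while 42.7% of all TL windows with 3 or 4 peaks had 4. The same gap was seen in TH (3.29% of private and 26.4% of all windows), YH (6.66 and 47.2%) and YL (8.67 and 43.1%). The share of TL windows without any other group's peak fell with each additional TL peak, from 24.0% at 1 TL peak to 5.80% at 2, 1.08% at 3 and 0.0736% at 4. Windows under 4 TL peaks were thus nearly always also called elsewhere, with 22 exceptions among 29879.

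Just outside the rule lay 4004 windows with 2 TL peaks and none in the other groups. On its other side were 1027 windows with 3 or 4 TL peaks and a single peak of another group. That single peak belonged to TH in 436 windows (42.5%, 39.5 to 45.5), to YL in 299 (29.1%, 26.4 to 32.0) and to YH in 292 (28.4%, 25.8 to 31.3). TH, the other Tibetan group, thus held the single peak most often, although the YL list is longer than the TH list. Per 1000 windows in which the partner had exactly 1 peak, the values were 2.37 for TH, 1.72 for YH and 1.55 for YL. With lists of equal length TH held 45.1% (42.5 to 47.7), YH 32.5% and YL 22.4% of 1409 such windows.

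The partner was different for the other groups. Windows of YH with 1 other peak had it from YL in 60.5% and from TL in 20.3%, and windows of YL had it from YH in 50.1% and from TL in 703 of 3701 windows. Windows of TH had it from YL in 42.7% and from TL in 34.3%. In TL and in both Yorkshire groups the group of the same breed thus came first, whereas in TH, with the lists as deposited, YL came first. These shares rest on the same 4 lists and are not independent of one another.

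Windows with 3 or 4 TL peaks and 2 other peaks numbered 1633. Both peaks came from TH in 295 (18.1%), from YH in 150 (9.19%) and from YL in 150 (9.19%). The remaining windows had 1 peak each from TH and YL (369), from YH and YL (357) or from TH and YH (312). Pairs of TH peaks were thus close to double the pairs of either Yorkshire group, and most windows drew their peaks from different groups.

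TL-private regions were short. Of the 354 regions, 271 were 1 window long, 72 were 2 windows, 7 were 3, 2 were 4 and 2 were 5, and together they spanned 227000 bp. By the number of TL peaks that covered them, 332 regions had 3 and 22 had 4, and 21 regions held a window under 4 peaks at once. Of the 332 regions, 51 had a further TL peak within 1 kb that did not cover a base that was read. The peaks of a region lay well on top of each other: their summits, the highest points of the peaks, were spread over a median of 91.5 bp (quartiles 49 and 221.75), and in 300 regions over at most 500 bp. The stretch common to all covering peaks had a median of 647.5 bp, and the stretch under any of them 1078 bp.

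The TL peaks over these regions were small in tags. Their median was 21 tags (quartiles 16 and 31.5), with a range of 11 to 247, and 44.8% had fewer than 20 tags. TL peaks over windows with 3 or 4 TL peaks that were also called in another group had a median of 30 tags, and 20.8% had fewer than 20. The private peaks were shorter, with a median length of 852 bp beside 1079 bp, and their median fold enrichment was 8.35 (2.83 to 20.31) beside 7.87. Peaks of the 22 windows with 4 TL peaks had a median of 18 tags and a fold enrichment of 9.67, and those of the 432 windows with 3 had 21 tags and 8.255. The median over all 240851 TL peaks of these chromosomes was 25 tags, so the typical member peak lay below the typical TL peak in tags.

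This lower tag number was not shared by every group. The median tags of private peaks divided by those of all peaks of the same group were 0.84 in TL, 0.926 in TH, 1.00 in YH and 1.07 in YL. For length the ratios were 0.905, 1.02, 1.05 and 1.14, and for fold enrichment 1.06, 1.00, 0.929 and 0.927. TL peaks just outside the rule were much like the members: over windows with 2 TL peaks and no other they had medians of 20 tags and 843 bp, and over windows with 3 or 4 TL peaks and 1 other peak 22 tags and 903 bp. TL-private peaks were thus shorter and lower in tags than the TL list as a whole, a trait not particular to them, and YL-private peaks were longer and higher in tags than theirs. Peak length and tags come from the same calls as the rule, so these ratios are descriptions.

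The regions fell into 2 forms by what happened along the rest of their TL peaks, a property the rule reads at 1 base only. In 224 regions (63.3%, 58.1 to 68.1) no TH, YH or YL peak overlapped any covering TL peak at any base, and these are called stand-alone. In 121 regions (34.2%) every covering TL peak was overlapped by another group elsewhere along its length, and these are called flank regions. In the remaining 9 regions (2.54%) only some of the TL peaks were overlapped. Stand-alone regions made up 57.4% of TH-private, 40.4% of YH-private and 40.8% of YL-private regions. Of the 1075 TL peaks, 701 (65.2%, 62.3 to 68.0) were overlapped by no other group. The share among all TL peaks was 8.74%, but the rule itself takes TL peaks with a base that no other group reaches, so the gap to it was fixed by the choice of members.

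**Figure D2:**
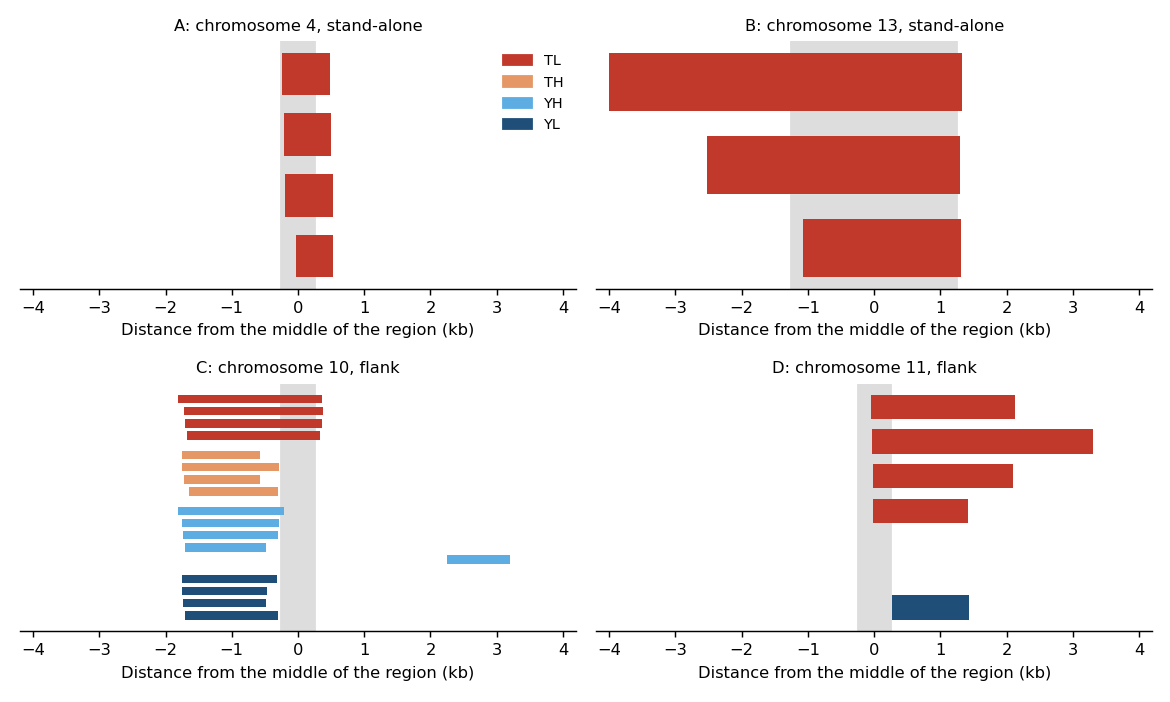
Peaks of the 4 groups around 4 TL-private regions as horizontal bars by distance from the middle of the region in kb, with the region in grey. The stand-alone regions on chromosome 4 (A) and 13 (B) lie under TL peaks with no other peak in view, whereas on chromosome 10 (C) peaks of all other groups overlap the TL peaks but end before the middle of the region, with 1 more YH peak farther to the right, and on chromosome 11 (D) a single YL peak starts beyond it. Only the covering TL peaks and nearby peaks of the other groups are drawn. The nearest TH peak in D, 3681 bp from the region, is left out.

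Stand-alone regions held the higher fold enrichments and flank regions the higher tags. The median over stand-alone regions was a fold enrichment of 8.905 with 18 tags, and over flank regions 7.17 with 29 tags. In 73 of the 224 stand-alone regions every covering peak had fewer than 20 tags. The summits of all covering TL peaks lay inside the region in 195 stand-alone regions and in 11 flank regions, and no summit lay inside in 2 and 79. The 2 forms thus differed in what the private window was: the centre of the TL peaks in most stand-alone regions, and their edge in most flank regions. The forms partly set these counts, since a base under another group's peak could not be read as private.

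**Figure D3:**
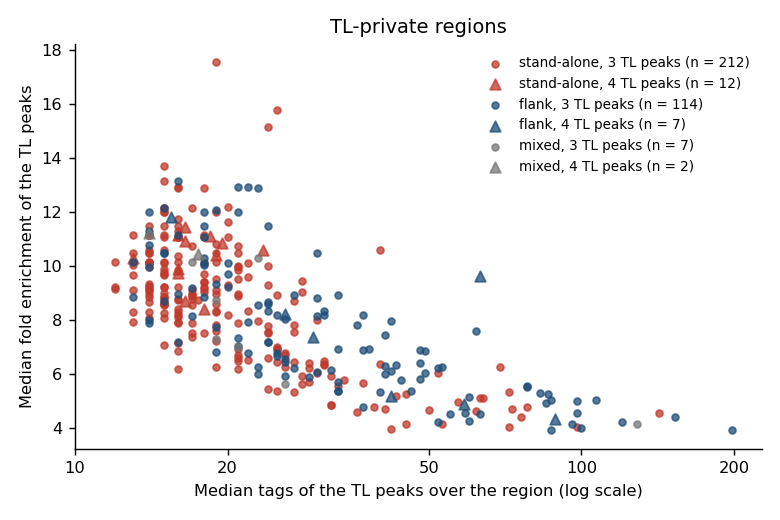
Median fold enrichment against median tags (log scale) of the TL peaks over each of the 354 regions, by form and by whether a window lay under 3 (circles) or 4 TL peaks (triangles). Most points with many tags have a low fold enrichment, and stand-alone regions gather at a median of 18 tags.

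The flank regions lay beside peaks that the other groups also had. A median of 2 peaks of other groups overlapped the covering TL peaks, with 1 such peak in 51 regions, 6 or more in 24 and up to 12. TH overlapped in 80 regions (66.1%), YL in 70 (57.9%), YH in 67 (55.4%), and all of them in 34 (28.1%). The TL peaks were longer than the overlapping peaks in 102 of 121 regions (84.3%), with medians of 1115.5 and 883 bp, but the rule favours this, since it takes bases that TL peaks reach and the others do not. TL had more tags in 78 regions, with medians of 29 and 25 tags, while the medians of fold enrichment were 7.17 and 7.085. The nearest peak of another group ended or started a median of 59 bp from a base that was read, within 50 bp in 55 regions and within 100 bp in 81. At those regions the private call thus rested on where peaks were taken to begin or end.

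**Figure D4:**
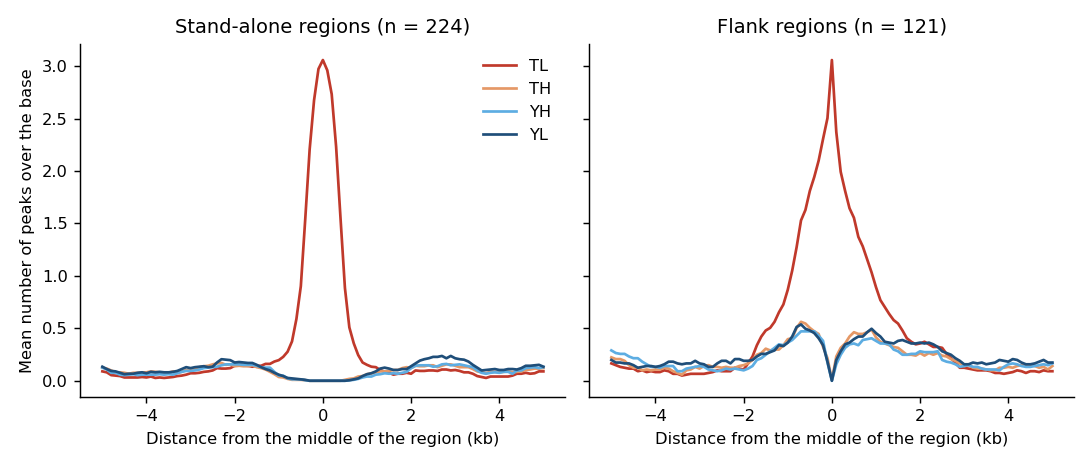
Mean number of peaks of each group over a base, by distance from the middle of the region in kb, for stand-alone (left) and flank regions (right). TL stands at 3.06 in the middle of both, and at 1 kb the other groups lie between 0.0446 and 0.0603 beside stand-alone regions and between 0.372 and 0.409 beside flank regions.

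Next to the regions the numbers of other peaks were partly set by the form itself, since stand-alone regions were those whose TL peaks met no other peak. The genome means of peaks over a base were 0.112 for TL, 0.127 for TH, 0.135 for YH and 0.158 for YL. Averaged over 3 to 5 kb on both sides of stand-alone regions, the means were 0.0531, 0.0940, 0.0891 and 0.113 in the same order, each below its genome mean. Over the same distances from flank regions they were 0.0923, 0.127, 0.153 and 0.168. These means rest on few peaks and varied with distance, beside flank regions from 0.0909 to 0.289 for YH, and were not tested. The nearest peak of another group lay a median of 958 bp from a region, touched it in 116 regions (32.8%) and was over 5000 bp away in 76 (21.5%). For stand-alone regions, where the form excludes the closest peaks, the median was 2861 bp, and by group 4727.5 bp for TH, 5668 bp for YH and 4704.5 bp for YL.

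Coordinates below are those of Sscrofa10.2, the pig assembly of the lists. Among stand-alone regions with a window under 4 TL peaks, the highest median fold enrichment was at chr4:30176501-30177000. Its 4 TL peaks had 15, 17, 16 and 17 tags and fold enrichments of 9.67, 10.75, 12.15 and 13.29. All 4 summits lay in the window, within 34 bp of each other, and the nearest other peak, of TH, was 4912 bp away. This member was thus narrow, alike in the 4 peaks and clear of every other list.

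Next among them was chr3:43378501-43379500. Its TL peaks had 19, 16, 16 and 12 tags and fold enrichments of 11.23, 11.08, 11.28 and 10.12, with the nearest other peak 7957 bp away. At chr11:55436501-55437500 the peaks had 37, 17, 20 and 16 tags and fold enrichments of 12.46, 11.14, 9.67 and 11.08, and peaks of the other groups began 1401 bp away. In both regions the 4 peaks differed little in fold enrichment, while 1 peak on chromosome 11 had close to double the tags of the others.

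High fold enrichment did not by itself mark a place that the other groups lacked. The highest median among regions with a 4-peak window was 11.81 at chr13:27043501-27044000, with fold enrichments of 12.15, 9.67, 12.92 and 11.47 and 13, 14, 18 and 17 tags. Here 2 TH peaks, 1 YH peak and 1 YL peak overlapped the TL peaks, with fold enrichments of 12.83, 10.89, 10.51 and 9.36. The first of them, of YL, started at 27043760, just past the base that was read, so what was private here was an edge of the TL peaks. At chr3:27557001-27557500, with fold enrichments of 8.6, 12.15, 12 and 10.47, 1 of the 4 TL peaks was overlapped, by TH, and TH peaks lay 74 bp from the region. Of all 21 regions with a window under 4 TL peaks, 12 were stand-alone, 7 were flank regions and 2 were mixed, and their median fold enrichments ran from 4.345 to 11.81.

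The 5 regions with the most tags among those under 4 TL peaks were all flank regions. At chr10:75591501-75592000 the TL peaks had 63, 63, 74 and 62 tags and ended between 75592076 and 75592120. At the same place 4 peaks each of TH, YH and YL started beside the TL peaks and ended between 75591176 and 75591538. Their tags were 34, 70, 20 and 69 in TH, 68, 71, 39 and 41 in YH, and 68, 60, 75 and 42 in YL. All 16 peaks thus marked 1 methylated place with overlapping tag numbers, and in TL the 4 peaks ran further in 1 direction by a similar length.

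The other 4 of these regions were also flank regions, with fewer partners. At chr18:54291001-54291500 TL peaks of 57, 69, 54 and 60 tags started before 2 TH, 2 YH and 3 YL peaks. At chr14:15480501-15481000 the TL peaks had 31, 34, 28 and 20 tags, and 3 TH and 2 YL peaks started later. At chr11:613001-613500 the TL peaks had 98, 123, 79 and 65 tags with fold enrichments of 4, 4.56, 4.97 and 4.13, and 1 YL peak of 43 tags overlapped them. At chr4:19507001-19507500 the TL peaks had 46, 38, 40 and 44 tags, and 1 YH peak of 40 tags overlapped them. At the last 2 regions 1 peak of another group lay along the TL peaks, on chromosome 4 with about as many tags as the TL peaks had. All TL peaks on chromosome 4 and most on chromosome 11 ran past it on both sides. Their other ends lay in further member regions, starting at 19505501 and 614501.

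The 4 regions longer than 1500 bp were all stand-alone and under 3 TL peaks. At 1500 bp, 7 regions tied, 6 stand-alone and 1 mixed, and the first by chromosome is named with them. At chr13:215006501-215009000, of 2500 bp, the peaks had 177, 142 and 74 tags and fold enrichments of 3.67, 4.55 and 5.65. Their summits lay within 43 bp, and the nearest other peak, of YH, was 6259 bp away. At chr7:39665001-39667000 the peaks had 63, 54 and 63 tags and fold enrichments of 6.6, 5.11 and 5.07, with a YL peak 5101 bp away. These were broad stretches of low fold enrichment that no other list called.

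The remaining long regions lay nearer to other peaks. At chr18:10632501-10635000 the peaks had 98, 102 and 81 tags and fold enrichments of 4.36, 3.08 and 4.05, but a YL peak came within 35 bp and a YH peak within 113 bp. At chr15:151602501-151604500 the peaks had 69, 73 and 53 tags, with another group's peak 943 bp away. At chr3:19170501-19172000 they had 50, 89 and 62 tags, with a TH peak 1653 bp away. The YL peak at the first of these started at 10635036, next to the TL peak that ended at 10635017, so this region was stand-alone by a narrow margin.

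The regions farthest from any other peak were small and high in fold enrichment. At chr8:63493501-63494000, 73515 bp from the nearest peak of another group, the 3 TL peaks had 18, 18 and 15 tags and fold enrichments of 12.62, 10.03 and 10.12. At chr10:23075001-23075500, at 69836 bp, they had 20, 26 and 15 tags and fold enrichments of 12.18, 17.21 and 8.31. At chr2:149035001-149035500, at 55797 bp, they had 15, 26 and 25 tags and fold enrichments of 13.16, 15.77 and 20.31. These places were islands of TL peaks in stretches where the other groups had none over the distances given, each on 3 peaks of at most 26 tags.

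The other 2 of the farthest regions were alike. At chr1:68847501-68848000, at 39494 bp, the peaks had 17, 18 and 11 tags, and at chr11:33002001-33002500, at 26784 bp, they had 16, 20 and 18. Fold enrichments ran from 9.11 to 13.85 in the first and from 9.67 to 11.47 in the second. All summits of the 5 farthest regions lay inside their windows.

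TL-private windows were spread over all 18 chromosomes. Per 1000 windows with 3 or 4 TL peaks the number was 6.49, and it ran from 3.93 on chromosome 5 (14 windows, 2.35 to 6.59) to 9.33 on chromosome 13 (36 windows, 6.75 to 12.9). Of the 18 intervals, only that of chromosome 13 lay wholly above the value of all chromosomes, and none lay wholly below it. No allowance was made for looking at 18 intervals, and the windows of chromosome 13 include a region of 5 adjoining windows. In regions per 100 Mb of sequence, chromosome 13 lay below the value of all chromosomes (11.9 beside 14.5), chromosome 10 was highest at 26.5 and chromosome 15 lowest at 9.51. All 15 regions of chromosome 15 were stand-alone, and on chromosome 17 this was so for 3 of 11. The median gap between neighbouring regions was 3852250 bp, 26 regions (7.34%) lay within 100 kb of another, and no 3 regions lay within 100 kb of each other in a chain. The members were thus scattered places and not parts of long domains.

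**Figure D5:**
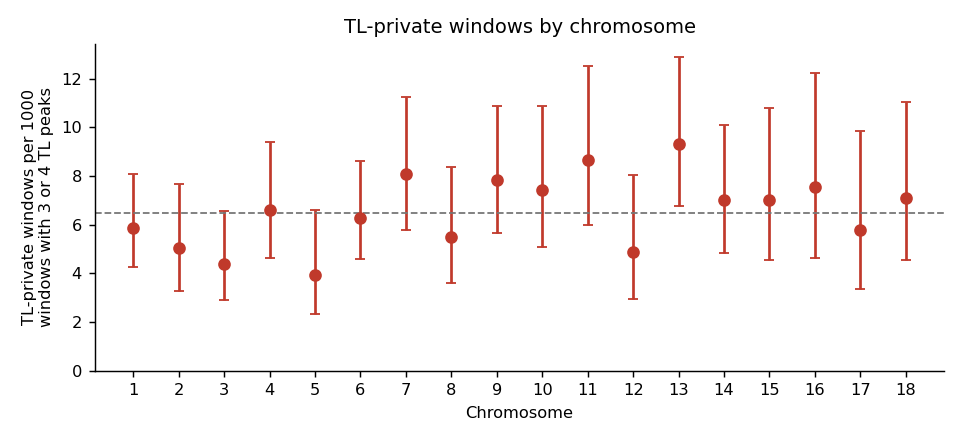
TL-private windows per 1000 windows with 3 or 4 TL peaks on each of chromosomes 1 to 18, with 95% Wilson intervals for counting error and the value over all chromosomes, 6.49, as a dashed line. Chromosome 13 stands highest at 9.33 and chromosome 5 lowest at 3.93.

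The share of members at the ends of the chromosomes depended on the tags of the peaks. Of the 454 windows, 107 lay in the outer 10% at either end of a chromosome, a share of 23.6% (19.9 to 27.7). The share was 34.7% for all windows with 3 or 4 TL peaks. The 10% was taken at each end, so these shares are not to be set against 10% of the sequence. YH-private and YL-private windows stood at 25.7 and 25.2%, and TH-private windows at 32.2% (29.3 to 35.3). By form, 16.5% (12.2 to 21.9) of stand-alone and 25.6% (18.7 to 34.1) of flank regions lay there. With TL peaks of at least 20 tags only, the share was 39.8% (33.4 to 46.6) of 206 private windows, beside 39.4% of the 56113 windows with 3 or 4 such peaks. With that minimum in every list it was 34.6% (28.9 to 40.7) of 243 private windows. Lists of equal length gave 17.9% (15.3 to 20.9) of 730 private windows. Windows under 4 TL peaks gave 9.09% (2.53 to 27.8) of 22. The lower share of the members thus lay outside the counting error in the full lists and within it among peaks with more tags.

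No member window was tied to a gene by the annotation used. The annotation came from part of the study's lists of windows that differed between breeds, 3557 windows of TH against YH and TL against YL, from which only the genomic element and gene symbol were read. Of these, 6 were TL-private, all in the list of TL against YL, and all 6 were intergenic, as were 90.4% of the 3557, so the count says little of the members. They lay on chromosome 1 (start 312998001) and on chromosome 10 (starts 23075001, 23243501, 49056001, 66521501 and 75591501). All of them but the last were stand-alone, with median fold enrichments of 4.71 to 12.18 and median tags of 15 to 73. The other 448 windows were not annotated here.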

How the data were processed

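MeDIP-seq peaks of heart DNA from 16 pigs (4 each of TH, YH, TL and YL) were used as deposited, as 1 peak list per group. The authors trimmed reads with FASTX (0.0.13), mapped them to Sscrofa10.2 (Ensembl release 69) with Bowtie (0.12.8) and called peaks with MACS (1.4) at a DiffScore of at least 50. The tags of a peak are counts that the authors deposited without normalization, and its fold enrichment is a ratio that the authors' peak caller gave. Lengths and summits are in bp. In 100907 TH peaks the end is given only in a joint field, from which it was read. Reads per animal were not used here, so a missing peak was not set against depth.

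The peaks of each list over base 250 of each 500 bp window were counted on chromosomes 1 to 18. Counting was tested on simulated data with planted private sites. Since each list is 1 value per group, values were described and not tested. Wilson intervals (SciPy 1.17.1, Python 3.11.15, pandas 2.3.3) are at 95%. The members and lists were chosen with earlier results of these data known. Regions were named by rule: the 5 longest, the 5 with the highest median fold enrichment and the 5 with the most tags among regions with a window under 4 TL peaks, the 5 farthest from another group's peak, and any with a window annotated to a gene. The intended description of base composition was not made, since no genome of this assembly was used here. The alternatives were lists of equal length, tag minimums, stricter distance to other peaks, a shifted grid, 4 peaks only, 1 other peak allowed, chromosome X and joining over gaps.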

Additional observations from a re-analysis of the deposited data

Results flagged for a closer look

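Unplaced scaffolds were outside the windows described above. There, 19 windows had 3 or 4 TL peaks and no other group's peak, of 4628 with 3 or 4 TL peaks (0.411%), above the limit of 3 counts that a count of 0 allows. On the same scaffolds 26 of 5040 TH windows (0.516%), 25 of 6506 YH windows (0.384%) and 73 of 7237 YL windows (1.01%) were private.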

How the results depend on the processing

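The members carry no animal names, so no replicate could be left out. No paired analysis was possible because the result comes from no test. Windows, regions and peaks (454, 354 and 1075) became 730, 597 and 1823 with lists of equal length, 206, 141 and 421 with TL peaks of at least 20 tags, and 243, 166 and 499 with that minimum in every list. They became 292, 217 and 664 with no other peak within 500 bp, 22, 21 and 84 with 4 TL peaks only, and 1481, 1077 and 3311 with 1 other peak allowed. The share with 4 TL peaks (4.85%) was 7.63% with 1 other peak allowed and 100% by construction with 4 only.

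In the order equal lists, at least 20 tags in TL, at least 20 tags in every list, and 4 peaks only, the median fold enrichment (8.35) was 9.14, 6.03, 6.41 and 9.67. In the same order the median tags (21) were 18, 36, 32 and 18, and the share in the outer 10% at either end of the chromosomes (23.6%) was 17.9, 39.8, 34.6 and 9.09%. With no other peak over the window and none within 500 bp, the fold enrichment was 8.745 and 8.775 and the tags 19 in both. The share of TL peaks that no other group overlapped (65.2%) was 78.4, 44.2 and 51.5% under the first 3 settings, 92.7 and 99.2% under the stricter distances, and 21.2% with 1 other peak allowed. The tag minimum selects on tags itself, and the distance rules remove flank regions by construction. Equal lists leave the TL list whole and cut the others, so the number of TL-private windows could only rise. The cause of the other shifts was not tested. A grid shifted by 250 bp, joining over 1 window and chromosome X moved none of these values past its limit. Lists of equal length for the other groups, and for the share of single other peaks, were added after the data were seen. Of the member peaks, 44.8% have fewer than 20 tags, which limits how firmly their calls hold.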

Other observations

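The sex chromosomes, which the rule left out, held 3 TL-private windows on X of 800 with 3 or 4 TL peaks (0.375%), and 0 on Y of 11. On X, 17 of 1313 TH windows (1.29%), 16 of 2309 YH windows (0.693%) and 31 of 2672 YL windows (1.16%) were private. The value for TL is at the limit of 3 counts that a count of 0 allows.

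The member with the highest median fold enrichment of all, 17.54, was chr14:100726501-100727000, chosen after its values were seen. It was stand-alone under 3 TL peaks with a median of 19 tags and fold enrichments of 12.59 to 18.71, with summits within 39 bp and the nearest other peak 10299 bp away. The member with the most tags, also chosen after its values were seen, was the flank region chr7:123847501-123848500, with a median of 198 tags and a fold enrichment of 3.91. Each of its 3 TL peaks was overlapped by TH, with the nearest TH peak 56 bp from the region, and the nearest YH and YL peaks were 10675 and 10667 bp away.

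The member nearest to a window annotated to a gene, again chosen after its values were seen, was chr1:257569001-257569500. It lay 14.5 kb from a window listed in an intron of GNAQ, which encodes a G protein alpha subunit that couples receptors to phospholipase C. Its 3 TL peaks had a median fold enrichment of 10.47 and 14 tags, and no other group overlapped them, with the nearest other peak 1760 bp away.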
